A study of Mus musculus with 12 samples.

Results

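Expression was examined for 6 genes that handle glutamine, glutamate and ammonia in the liver: Gls2, Glud1, Glul, Slc38a3, Slc1a2 and Rhbg. They were taken by symbol from a table of 24475 genes, all 6 were found, and all 6 had enough expression to be tested. The samples were liver from fed mice, 6 samples of wild type (WT) and 6 of mice lacking Gcg (Gcg KO). Gcg is the gene for the precursor of glucagon and of the glucagon-like peptides. The labels give no strain, sex or age and no details of the allele, and libraries are named here by the number in their title, WT 1 to WT 6 and Gcg KO 7 to Gcg KO 12. Values are RPKM, read counts scaled to gene length and to library depth. Levels and ratios set between genes also depend on the gene lengths and the handling of shared reads by the authors, which are unknown here.

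The liver both breaks down and makes glutamine, in different hepatocytes. Periportal hepatocytes, which meet portal blood first, hold the glutaminase Gls2, which frees ammonia from glutamine beside the urea cycle. Pericentral hepatocytes around the outflow vein hold glutamine synthetase (Glul), which traps the ammonia that escapes, together with the glutamate transporter Slc1a2 and the ammonia transporter Rhbg. Glutamate dehydrogenase (Glud1) links glutamate to ammonia in mitochondria, and Slc38a3 carries glutamine across the plasma membrane.

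In Gcg KO livers 3 of the 6 genes fell, 0 rose and 3 did not pass the test, where 3.87% of the 11347 tested genes passed in either direction, 1.92% falling and 1.95% rising. Gls2 fell to 20.2% of the WT level, Slc38a3 to 60.4% and Slc1a2 to 64.9%. Glul had a mean above that of WT, and Rhbg one below it, but neither passed, and Glud1 was at 98.8% of WT. The test was limma on log2(RPKM + 0.5), adjusted by Benjamini-Hochberg across every gene tested, and the adjusted p-values given throughout are from this fit. A negative log2 fold change means lower in Gcg KO, and each comes with its standard error (SE) from 6 libraries per group. The percentages of WT are those fold changes turned into percent.

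**Figure D1:**
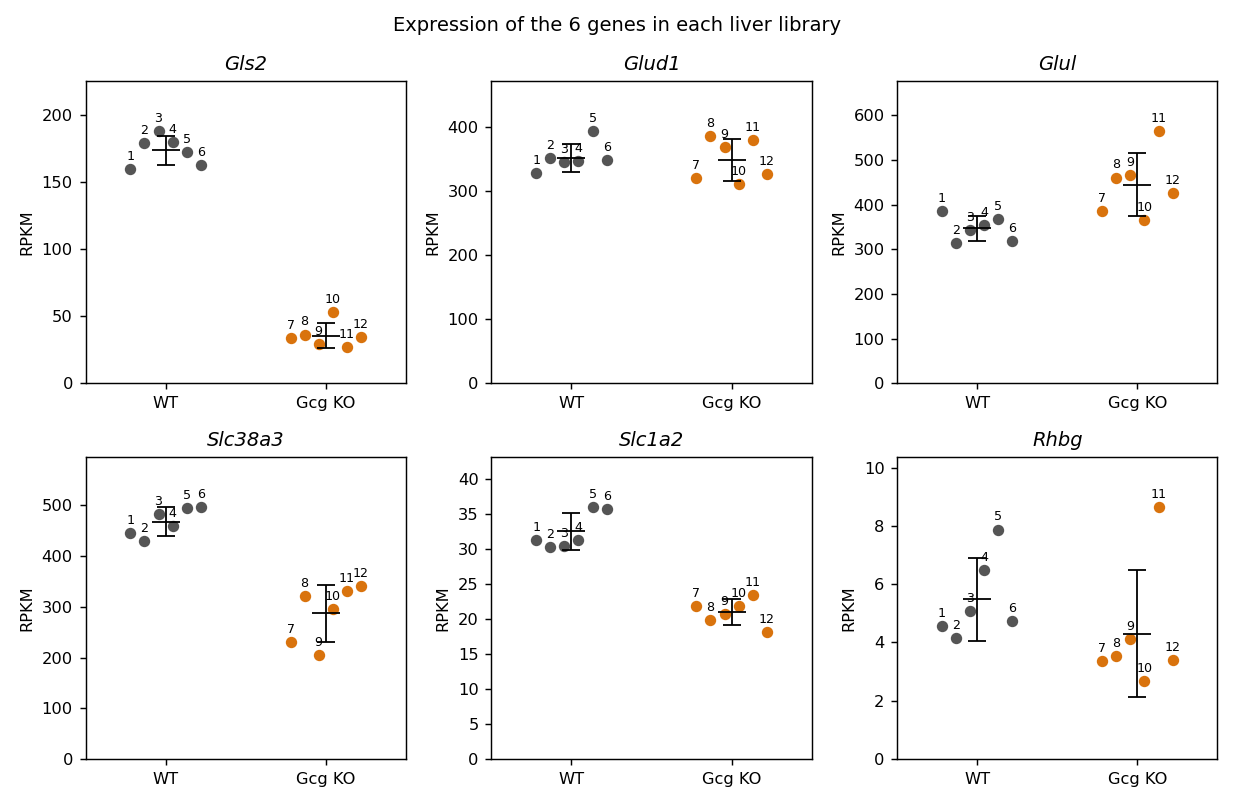
RPKM (vertical axes, from 0) of the 6 genes in each WT (grey) and Gcg KO (orange) library, with the library number above each point and the group mean and SD in black. Gls2, Slc38a3 and Slc1a2 have every Gcg KO point below every WT point, and the ranges for Glud1, Glul and Rhbg overlap.

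Depth was estimated from the smallest steps in the values at 11600000 to 15000000 reads per WT library and 10300000 to 13700000 per Gcg KO library. Between 15191 and 15564 genes per library had a value above 0, and 0 of 66 pairs of libraries were identical. Gcg was listed at 0 in all 12 libraries, so it checked no label. Albumin (Alb), which marks hepatocytes, lay between 22432 and 31956 RPKM in every library. WT 6, Gcg KO 10 and Gcg KO 12 stood apart from the other 9 libraries on the first principal component (17.0 to 28.8 against 6.99 or less), and Igfbp1, a secreted IGF-binding protein, lay at 6.22 to 14.2 RPKM in these 3 and at 159 to 738 RPKM in the other 9. Results are therefore also given without them. Whether each library is a different mouse is not stated in the labels, and the p-values then reflect only how much these samples spread, possibly for technical reasons. In whole tissue, fewer cells of a type and less RNA per cell cannot be told apart.

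Promoter sequences are shown for Glul and Slc1a2, the pericentral genes with an entry in the promoter table, to set the makeup of their start regions beside their values. They are RefSeq windows of 250 bases before and 50 bases after an annotated start (GRCm38.p6, plus strand, 5′ to 3′), and capitals mark matches to the motifs searched. The Glul window is chr1:153899679-153899978 and the Slc1a2 window is chr2:102706188-102706487.
Glul: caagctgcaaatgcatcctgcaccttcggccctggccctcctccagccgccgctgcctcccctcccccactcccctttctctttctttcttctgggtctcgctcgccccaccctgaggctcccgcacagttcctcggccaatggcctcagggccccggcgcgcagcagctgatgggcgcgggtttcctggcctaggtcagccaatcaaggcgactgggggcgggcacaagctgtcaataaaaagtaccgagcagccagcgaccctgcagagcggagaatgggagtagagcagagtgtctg
Slc1a2: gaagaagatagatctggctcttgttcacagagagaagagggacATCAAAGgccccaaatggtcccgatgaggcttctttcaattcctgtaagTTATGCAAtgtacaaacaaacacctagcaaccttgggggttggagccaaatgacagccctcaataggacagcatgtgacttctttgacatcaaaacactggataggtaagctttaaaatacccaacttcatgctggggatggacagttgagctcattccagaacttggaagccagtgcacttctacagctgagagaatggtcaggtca
The motifs were TGACGTCA and its core TGACG (cAMP response element), CTTTGAT and CTTTGAA (TCF/LEF, the factors of Wnt/beta-catenin signalling), TTGCNNAA (C/EBP), AGAACA (glucocorticoid receptor core), CAAAGTCCA (HNF4) and TATAAA, each searched on both strands. The Slc1a2 window held 1 TCF/LEF match (ATCAAAG, which is CTTTGAT on the other strand, beginning 207 bases before the start) and 1 C/EBP match beginning 158 bases before the start. CTTTGAT is present in 3.73% of the 32851 promoter windows in the table and TTGCNNAA in 10.8%, and the 2 matches do not overlap. The Glul window held none of these motifs, nor did that of Glud1 (chr14:34310477-34310776). The Glul window was 64.3% G and C with 17 CpG, that of Slc1a2 45.7% with 1 CpG and that of Glud1 81.0% with 51 CpG, against medians of 52.7% and 7 over all windows. The Slc1a2 window lies inside the gene, which has other annotated starts, and gene-level values do not show which start was used. No sequence is shown for Gls2, Slc38a3 and Rhbg.

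Of the 3 enzymes among the 6 genes, Gls2 was the 1 that passed. Gls2 (Entrez 216456) lies on chromosome 10 from 128194635 to 128210004 (GRCm38). WT livers had 159.6 to 188 RPKM with a median of 175, and Gcg KO livers had 26.7 to 53.1 RPKM with a median of 33.8. The groups did not overlap, which held for 3.09% of tested genes (1.5% lower and 1.6% higher in Gcg KO), and the highest Gcg KO value, in Gcg KO 10, was below 54 RPKM. The log2 fold change was -2.31 ± 0.13 SE (adjusted p = 4.3e-07), and only 2 of the 11347 tested genes had a smaller p-value. The 95% interval of the level in Gcg KO was 16.7% to 24.6% of WT. By mean expression Gls2 went from rank 426 of the genes in the table in WT to rank 1519 in Gcg KO. Without WT 6, Gcg KO 10 and Gcg KO 12 the log2 fold change was -2.47 (adjusted p = 6.9e-07).

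Glud1, which converts glutamate to 2-oxoglutarate and ammonia, showed no difference that could be detected. Glud1 (Entrez 14661, chromosome 14, 34310727 to 34345033) had 328 to 393 RPKM in WT (median 347) and 311 to 386 RPKM in Gcg KO (median 348). The ranges lay nearly on top of each other, with the highest value of all in WT 5. The log2 fold change was -0.02 ± 0.07 SE (adjusted p = 0.957), and the 95% interval placed the Gcg KO level between 88.9% and 109.9% of WT. A change the size of that of Slc1a2 or Slc38a3 lies outside this interval. The sign of the Glud1 difference turned under quantile normalization (0.064), without WT 6, Gcg KO 10 and Gcg KO 12 (0.042), and without WT 5, Gcg KO 7, Gcg KO 10 or Gcg KO 12 alone. GENCODE lists a processed pseudogene of Glud1, Glud-ps, that matches it at 97.6% identity over 656 bases, and the handling of shared reads by the authors is unknown here.

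Glul, which joins ammonia to glutamate, had a higher mean in Gcg KO but did not pass the threshold. Glul (Entrez 14645, chromosome 1, 153899929 to 153909723) had 313 to 387 RPKM in WT (median 349) and 366 to 564 RPKM in Gcg KO (median 443). Of the 6 Gcg KO libraries, 4 lay above the highest WT library, while Gcg KO 7 and Gcg KO 10 lay within the WT range. The log2 fold change was 0.35 ± 0.10 SE (adjusted p = 0.0722), or 127% of WT with a 95% interval of 109.7% to 147%. The call depended on the setting: Glul passed without Gcg KO 10 (0.40, adjusted p = 0.0410), under quantile normalization (0.44, adjusted p = 0.0138) and with array weights (0.36, adjusted p = 0.0303), and not under the other 19 alternatives. Without WT 6, Gcg KO 10 and Gcg KO 12 it was 0.40 (adjusted p = 0.0882). Processed pseudogenes of Glul, the closest of them Glns-ps1 at 96.8% identity over 1126 bases, leave the same uncertainty about shared reads.

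Set side by side, the glutaminase and synthetase transcripts stood in a different proportion in every Gcg KO library. The ratio of Gls2 to Glul RPKM was 0.413 to 0.571 in WT (median 0.510) and 0.0473 to 0.145 in Gcg KO (median 0.0795). The ranges were far apart, and the geometric mean was 6.36-fold lower in Gcg KO. Gls2 alone was 4.94-fold lower in the limma fit, which adds 0.5 to each RPKM, whereas the ratio uses RPKM as listed. Because the genes were chosen with results known, the ratio is given without a test.

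**Figure D2:**
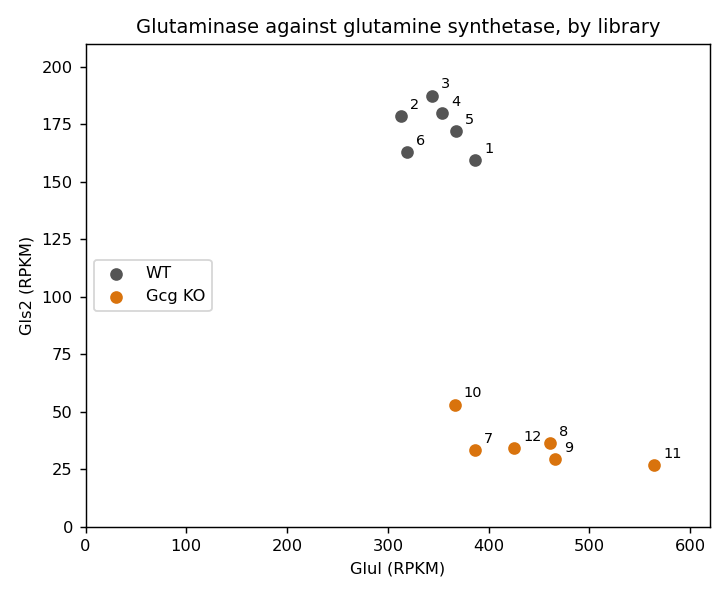
Gls2 RPKM (vertical axis) against Glul RPKM (horizontal axis) in each library, with WT grey and Gcg KO orange, labelled with the library number. WT libraries lie at 159.6 to 188 RPKM of Gls2 and Gcg KO libraries at 26.7 to 53.1, and the ranges of Glul overlap between 366 and 387.

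Of the transporters, Slc38a3 had the highest level. Slc38a3 (SNAT3, Entrez 76257, chromosome 9, 107651154 to 107668968) is the sodium-coupled glutamine carrier of the hepatocyte plasma membrane. WT livers had 429.7 to 497 RPKM (median 472) and Gcg KO livers 206 to 340.2 RPKM (median 309). All Gcg KO values lay below all WT values, with Gcg KO 7 and Gcg KO 9 lowest at 230.0 and 206 RPKM. The log2 fold change was -0.73 ± 0.12 SE (adjusted p = 0.00336), which is 60.4% of WT with a 95% interval of 50.6% to 72.2%. Without WT 6, Gcg KO 10 and Gcg KO 12 it was -0.79 (adjusted p = 0.0146).

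Within its family of 11 Slc38 genes, Slc38a3 made up 48.7% to 60.8% of the summed RPKM in WT and 41.7% to 58.4% in Gcg KO. The sum itself was 803 to 1018 RPKM in WT and 494 to 628 RPKM in Gcg KO, without overlap. Slc38a4, a carrier of neutral and cationic amino acids and the next most abundant, fell as well (WT 262 to 375 RPKM, Gcg KO 191 to 215 RPKM, log2 fold change -0.63 ± 0.09 SE, adjusted p = 0.00123). Slc38a2 ranged from 20.1 to 117 RPKM in WT and from 16.9 to 59.7 in Gcg KO and did not pass (adjusted p = 0.366). Slc38a8 was listed at 0 in all 12 libraries.

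Slc1a2 (GLT-1, Entrez 20511, chromosome 2, 102658239 to 102790784) takes up glutamate at the plasma membrane. Its values were 30.3 to 35.9 RPKM in WT (median 31.3) and 18.1 to 23.3 RPKM in Gcg KO (median 21.2). The groups were separated and the spread within each was small. The log2 fold change was -0.62 ± 0.07 SE (adjusted p = 2.2e-04), and the level in Gcg KO was 64.9% of WT (95% interval 58.3% to 72.3%). Without WT 6, Gcg KO 10 and Gcg KO 12 it was -0.56 (adjusted p = 0.00306). Slc1a2 made up 92.3% to 94.7% of the summed RPKM of the 7 Slc1 genes in WT and 89.9% to 95.7% in Gcg KO. GENCODE transcripts of Slc1a2 are 1957 to 11595 bases long where they are complete, so its level relative to the other genes depends on the length the authors used, which is unknown here.

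Rhbg, which moves ammonia across the membrane, was the least abundant of the 6. Rhbg (Entrez 58176, chromosome 3, 88242874 to 88254739) had 4.14 to 7.87 RPKM in WT (median 4.90) and 2.68 to 8.64 RPKM in Gcg KO (median 3.47). In 5 of the 6 Gcg KO libraries the value lay below the lowest WT library, while Gcg KO 11 lay above the highest. The log2 fold change was -0.38 ± 0.22 SE (adjusted p = 0.457), with a 95% interval of 54.8% to 107% of WT. Leaving out Gcg KO 11 alone gave -0.59 (adjusted p = 0.0476), so this library decided the call, and without WT 6, Gcg KO 10 and Gcg KO 12 the value was -0.24 (adjusted p = 0.737). At the estimated depth Rhbg rested on 68 to 184 reads per library, against 363 or more for each of the other 5 genes. These numbers take the shortest complete transcript of each gene, 1937 bases for Rhbg and 1957 for Slc1a2, which had the 363. GENCODE also lists Gm38392, a gene model that matches Rhbg at 99.9% identity over 1193 bases and is no row of the table, so the counting of shared reads is uncertain for Rhbg as well. Of the related Rh genes, Rhcg and Rhd were listed at 0 in every library and Rhag was at most 0.316 RPKM.

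The order of the levels changed between the groups. In WT livers the order by mean was Slc38a3 (468 ± 27.8 RPKM, SD, n = 6), Glud1 (352 ± 21.7), Glul (347 ± 28.1), Gls2 (173 ± 10.7), Slc1a2 (32.5 ± 2.62) and Rhbg (5.48 ± 1.42). Only Glud1 and Glul could not be ordered by their spread. In Gcg KO livers the order was Glul (445 ± 70.5 RPKM, SD, n = 6), Glud1 (349 ± 32.8), Slc38a3 (288 ± 56.5), Gls2 (35.5 ± 9.30), Slc1a2 (20.9 ± 1.84) and Rhbg (4.29 ± 2.18). There the ranges of Glul and Glud1 overlapped, as did those of Glud1 and Slc38a3. The coefficient of variation was larger in Gcg KO for all 6 genes, a difference that was not tested. It was 26.2% against 6.19% for Gls2, 19.7% against 5.93% for Slc38a3 and 15.9% against 8.08% for Glul. For Rhbg it was 50.8% against 25.9%, for Glud1 9.41% against 6.17% and for Slc1a2 8.79% against 8.06%. In Gcg KO, Gcg KO 10 stood out from its group for Gls2 and Gcg KO 11 for Rhbg.

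Of the 3 pericentral genes, Slc1a2 passed and Glul and Rhbg did not. Relative to Slc1a2, Glul RPKM was 8.94 to 12.4 times as high in WT and 16.7 to 24.2 times as high in Gcg KO, with no overlap. Relative to Rhbg, Glul was 46.6 to 84.7 times as high in WT and 65.3 to 137 times as high in Gcg KO, with overlap through Gcg KO 11. These ratios are descriptions without a test.

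Within groups, Glul and Rhbg varied together. After the group mean of log2(RPKM + 0.5) was taken off, Pearson's r over the 12 libraries was 0.81 and Spearman's rho 0.76, given as a description only. Pearson's r was 0.46 in WT and 0.92 in Gcg KO, and without the 2 libraries farthest from the median of Glul it was 0.48, so much of it rested on Gcg KO 10 and Gcg KO 11. These libraries lay at opposite ends for several of the genes. Gcg KO 11 had the highest Glul, Rhbg and Slc1a2 and the lowest Gls2 of its group, and Gcg KO 10 had the lowest Glul, Rhbg and Glud1 and the highest Gls2. Glul and Gls2 had r = -0.72 and rho = -0.51, and r = -0.21 without the 2 libraries farthest from the median of Gls2. Gcg KO 10 also lay at 28.3 and Gcg KO 11 at -12.9 on the first principal component, and the part of that component in these relations was not tested.

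**Figure D3:**
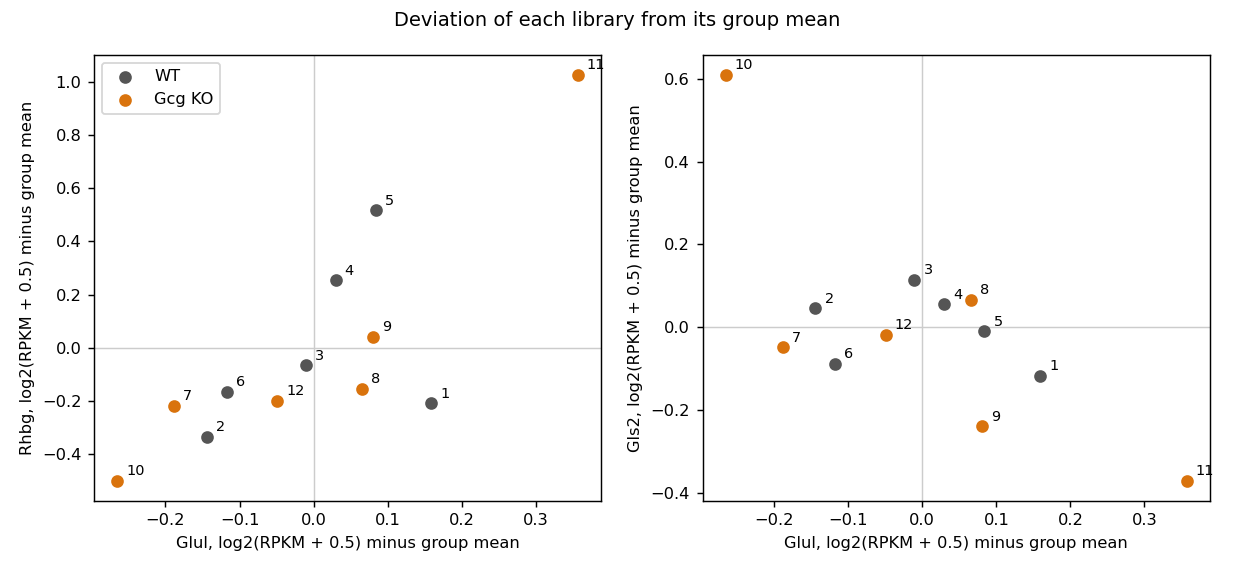
Deviation of each library from its group mean on the log2(RPKM + 0.5) scale, Glul on the horizontal axes, Rhbg (left) and Gls2 (right) on the vertical axes, with WT grey and Gcg KO orange with library numbers. Gcg KO 10 and Gcg KO 11 lie at the ends of both plots, and r is 0.81 on the left and -0.72 on the right.

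On the same scale, genes with a mean of at least 5 RPKM, other than those with only a provisional symbol such as Gm or Rik names, were ranked by Pearson's r to each of the 6, without regard to any known link. The closest to Gls2 were Cmtm8 (r = 0.88), Shroom1 (0.84) and Soat2 (0.84), and close to Glud1 were Tnk2 (0.89) and Fam107b (0.88). For Glul they were Aadat (0.94), Scamp3 (0.92) and Pick1 (0.90), and Aadat, an aminotransferase that makes glutamate from aminoadipate, is itself one of the pathway genes below. For Slc38a3 they were Abcb8 (0.92), Isoc2a (0.87) and Oasl1 (0.87), for Slc1a2 Plod1 (0.91), Stra6l (0.80) and Habp2 (0.76), and for Rhbg Sidt2 (0.97), Lifr (0.94) and Enpp2 (0.90). These are among the highest of 5984 or 5985 correlations over 12 libraries and are a description only. For each pair, r was also taken without the 2 libraries farthest from the median of that 1 of the 6 genes. It was 0.32 for Shroom1, 0.52 for Soat2, 0.62 for Isoc2a and 0.66 for Stra6l, and 0.728 or more for the other genes named here. Among the genes named here, Stra6l (log2 fold change -0.38, adjusted p = 0.00613) and Lifr (log2 fold change -0.83, adjusted p = 0.0388) differed between the groups.

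Around the 6 genes, listed enzymes of glutamine and glutamate metabolism and of linked pathways fell more often than they rose. The list is broad and also holds enzymes that do not act on glutamine or glutamate directly, such as Cps1, Hal, Uroc1 and Prodh. Of 55 enzymes listed, 48 were tested; 13 fell, 0 rose and 35 did not pass, which is 27.1% against 3.87% of all tested genes. Their median log2 fold change was -0.15, against 0.01 over all tested genes. Without Gls2, Glul and Glud1, 12 of 45 fell. The list was drawn up with earlier results of these data known and is no independent evidence of its direction.

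Among those that fell were 4 aminotransferases, enzymes that move amino groups between molecules. Got1, the cytosolic aspartate aminotransferase, went from 70.8 to 239.8 RPKM in WT to 13.8 to 35.3 RPKM in Gcg KO (a log2 fold change of -3.10 ± 0.28 SE, adjusted p = 3.4e-05). Oat, which makes glutamate semialdehyde from ornithine, went from 414 to 515 RPKM to 71.8 to 128 RPKM (-2.37 ± 0.12, adjusted p = 2.3e-07). Agxt, alanine-glyoxylate aminotransferase, fell by 1.16 on the log2 scale and Gpt, alanine aminotransferase, by 0.50. For each of these 4 genes all Gcg KO values lay below all WT values.

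Others of the 13 had different roles. Cps1, which takes the ammonia freed by Gls2 into the urea cycle, fell from 1085 ± 115 to 615 ± 78.1 RPKM (SD, n = 6, adjusted p = 2.2e-04). Asns, which uses glutamine to make asparagine, was at 1.69 to 8.64 RPKM in WT and fell to 0.190 to 1.04 RPKM (log2 fold change -1.88 ± 0.33 SE, adjusted p = 0.00543). Ftcd, an enzyme of histidine breakdown to glutamate, fell by 0.44 on the log2 scale (adjusted p = 0.00488). The remaining 5 that fell were Aldh4a1, Prodh, Nags, Uroc1 and Hal. Got2, the mitochondrial aspartate aminotransferase, did not pass, with means of 203 RPKM for WT and 208 RPKM for Gcg KO (adjusted p = 0.836). Nor did Tat, tyrosine aminotransferase, with means of 1072 and 537 RPKM (adjusted p = 0.155). Got2 and Tat were picked out after their values were seen.

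Of 42 transporters of glutamine, glutamate and ammonia listed, 22 were tested; 5 fell, 2 rose and 15 did not pass (31.8% against 3.87% of all tested genes). Their median log2 fold change was -0.03, and without Slc38a3, Slc1a2 and Rhbg 3 fell and 2 rose among 19. This list is also broad, holding genes of carriers for other amino acids such as Slc3a1. It too was drawn up with earlier results of these data known and is no independent evidence. Slc25a22, the mitochondrial glutamate carrier, had 60.5 to 99.9 RPKM in WT and fell to 30.4 to 45.9 RPKM (log2 fold change -1.05 ± 0.13 SE, adjusted p = 4.6e-04). Slc3a1, the heavy chain of the cystine and dibasic amino acid carrier, fell from 12.4 to 35.3 RPKM to 3.46 to 11.7 RPKM (-1.43 ± 0.28, adjusted p = 0.0107), and missed the threshold without WT 6, Gcg KO 10 and Gcg KO 12 (-1.24, adjusted p = 0.0523).

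The 2 that rose were Slc17a8 and Aqp8. Slc17a8, the vesicular glutamate transporter VGLUT3, was at 1.16 to 2.13 RPKM in WT and rose to 3.45 to 10.01 RPKM (log2 fold change 1.74 ± 0.22 SE, adjusted p = 3.5e-04). Aqp8, an aquaporin of hepatocytes that also passes ammonia, was at 36.4 to 65.96 RPKM in WT and 85.0 to 178 RPKM in Gcg KO (1.24 ± 0.18, adjusted p = 0.00151). For both genes all Gcg KO values lay above all WT values.

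**Figure D4:**
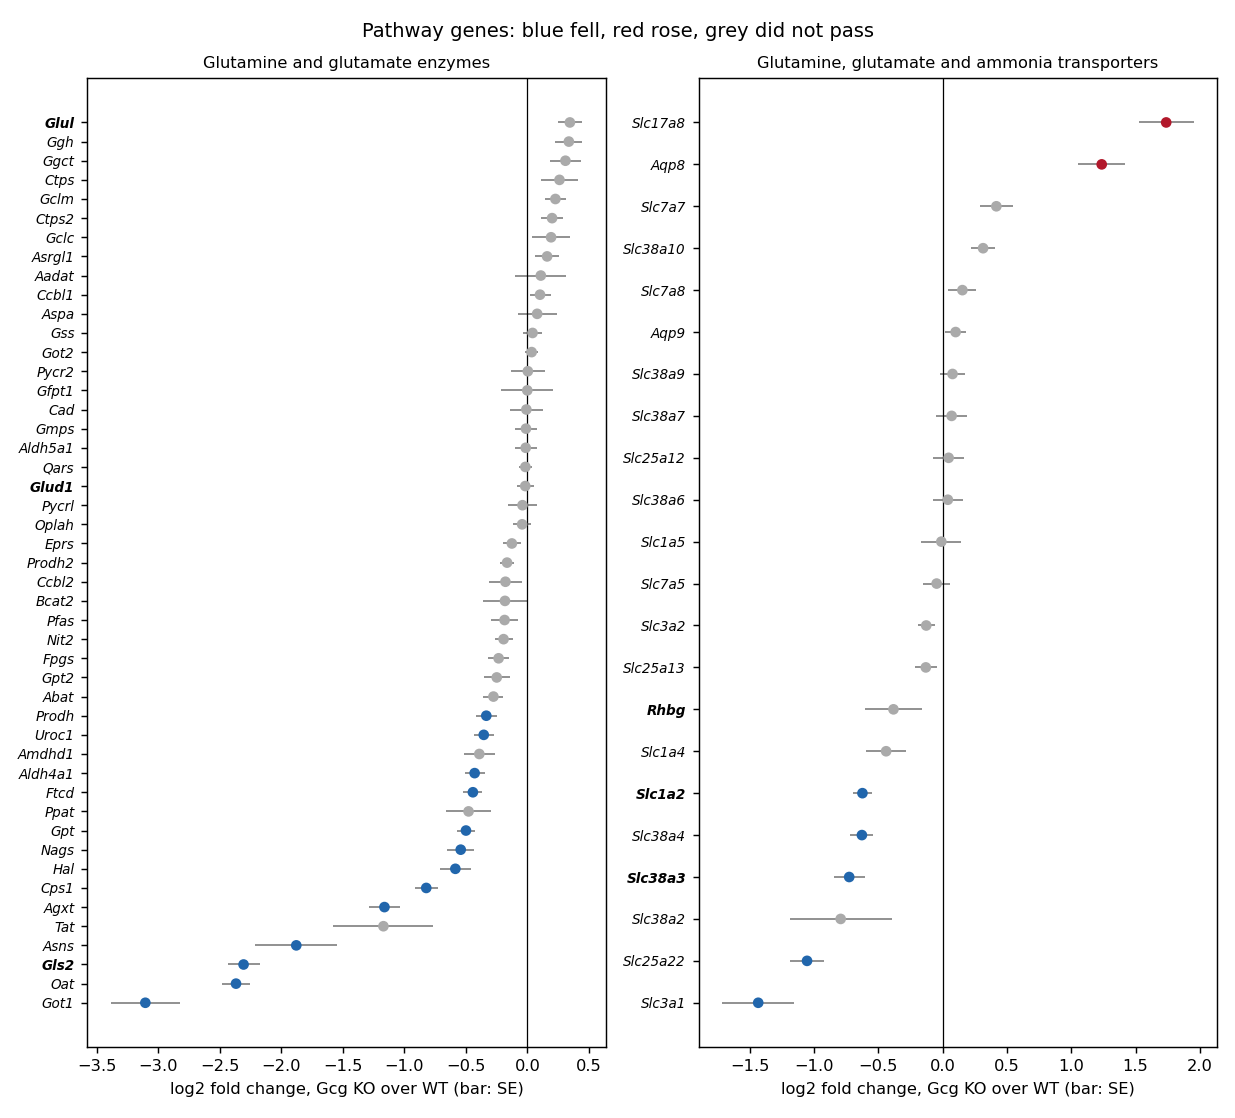
Log2 fold change, Gcg KO over WT (horizontal axes, bars are SE), of tested enzymes (left, 1 of the 48 not shown) and the 22 tested transporters (right), with the 6 genes in bold. Blue points fell (13 and 5), red points rose (0 and 2) and grey points did not pass.

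The zonation lists that hold Gls2 (periportal) and Glul, Slc1a2 and Rhbg (pericentral) both included genes that fell. Of 29 periportal genes tested, 11 fell, 3 rose and 15 did not pass (48.3% passed, against 3.87% of all tested genes, median log2 fold change -0.37), and those that fell included Gls2 and the urea cycle enzymes Ass1 and Arg1. Ass1 has a near-identical processed pseudogene, Gm5424, so its value is uncertain. The 3 that rose were Ctsc, Hsd17b6 and Apoa4, none of which passed without WT 6, Gcg KO 10 and Gcg KO 12 (adjusted p = 0.0778, 0.0965 and 0.107). Hsd17b6 also missed the threshold when WT 3, WT 5, Gcg KO 8, Gcg KO 9 or Gcg KO 10 alone was left out (adjusted p up to 0.0562), and Apoa4 when WT 3, WT 4, Gcg KO 8, Gcg KO 9, Gcg KO 10 or Gcg KO 12 was (adjusted p up to 0.0692). Of 32 innermost pericentral genes tested, 5 fell, 1 rose and 26 did not pass (18.8% passed, against 3.87% of all tested genes, median -0.15), and those that fell included Oat, Lhpp, Slc1a2 and Lect2. Lect2 passed narrowly (adjusted p = 0.0484) and lost its call under 16 of 22 alternatives, among them leaving out any 1 library other than Gcg KO 11 (adjusted p up to 0.102 for 1 library). Without WT 6, Gcg KO 10 and Gcg KO 12, 3 pericentral genes fell and 0 rose. Cyp27a1, the 1 that had risen, was then at 0.30 (adjusted p = 0.0598). In that fit 299 of all tested genes passed, against 439 with all 12 libraries. Both lists were drawn up with earlier results known.

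The summed markers of most other cell types overlapped between the groups, though single members of several lists passed. Some lists leaned to 1 side: only 1 of 12 tested endothelial and 1 of 11 stellate genes lay lower in Gcg KO (median log2 fold change 0.17 and 0.18). All 6 tested neutrophil genes (median -0.52, 0 passed) and all 7 erythroid genes (-0.26) lay lower. Of 11 Kupffer cell and macrophage genes, 3 did (median 0.05). The summed RPKM of 11 Kupffer cell and macrophage genes was 120 to 207 in WT and 143 to 212 in Gcg KO, and that of 13 endothelial genes 93.2 to 122 and 97.7 to 150.0. The sum of 11 stellate cell and fibroblast genes was 75.7 to 95.6 and 78.2 to 105, of 9 neutrophil genes 5.68 to 97.3 and 3.94 to 70.9, of 11 lymphocyte genes 2.53 to 4.01 and 2.51 to 4.05, and of 9 erythroid genes 344 to 661 and 353 to 437. Among them Lyve1, an endothelial marker, rose (2.06 to 4.43 RPKM in WT, 4.78 to 9.68 in Gcg KO, adjusted p = 0.0125), as did Rgs5, a pericyte marker in the stellate list, without overlap (6.11 to 7.10 and 7.81 to 8.999 RPKM, adjusted p = 0.00355). The haemoglobin genes Hbb-b1 (adjusted p = 0.0396) and Hbb-bs (adjusted p = 0.0438) fell. Their lowest and highest values stood in the same proportion in both groups, so they are not separate results. Hbb-bt and Hbb-b2 had the same values as each other, so the erythroid sum may hold the same signal more than once. The summed RPKM of 8 cholangiocyte genes did not overlap (20.4 to 33.5 RPKM in WT, 42.0 to 255 in Gcg KO). Spp1 was the 1 of 4 tested members that passed (11.2 to 25.1 RPKM in WT, 32.2 to 246 in Gcg KO). Krt19 was at most 1.43 RPKM and Epcam at most 0.511 RPKM. Slc1a2 and Glul are also known from astrocytes; of 6 astrocyte genes, Gfap, S100b and Slc1a3 stayed at or below 0.196 RPKM, and of the list's sum (440 to 556 RPKM in WT, 314 to 384 in Gcg KO) Aldh1l1, which hepatocytes express, made up 437 to 552 and 310.3 to 379.6 RPKM. Aqp4 (0.0393 to 2.60 RPKM in WT, 1.71 to 3.11 in Gcg KO) and Gja1 did not pass. The lists for fat and muscle (9 genes, 1311 to 2041 and 1663 to 2764 RPKM) and for pancreas and kidney (9 genes, 17.7 to 24.9 and 11.5 to 20.03 RPKM, 6 of them at 0 in all libraries) overlapped too, as did that of 11 hepatocyte genes (61022 to 79309 and 59404 to 71747 RPKM). Nearly all of the fat and muscle sum was Car3 (1311 to 2040.0 and 1660 to 2735 RPKM), which did not pass, while Cfd, the adipocyte protease adipsin, rose from 0.0743 to 0.552 RPKM in WT to 2.45 to 27.9 RPKM in Gcg KO (adjusted p = 7.9e-04). Nearly all of the pancreas and kidney sum was Cela1, a pancreatic elastase gene, which fell (adjusted p = 0.0179). The part of any of these in the results was not tested.

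**Figure D5:**
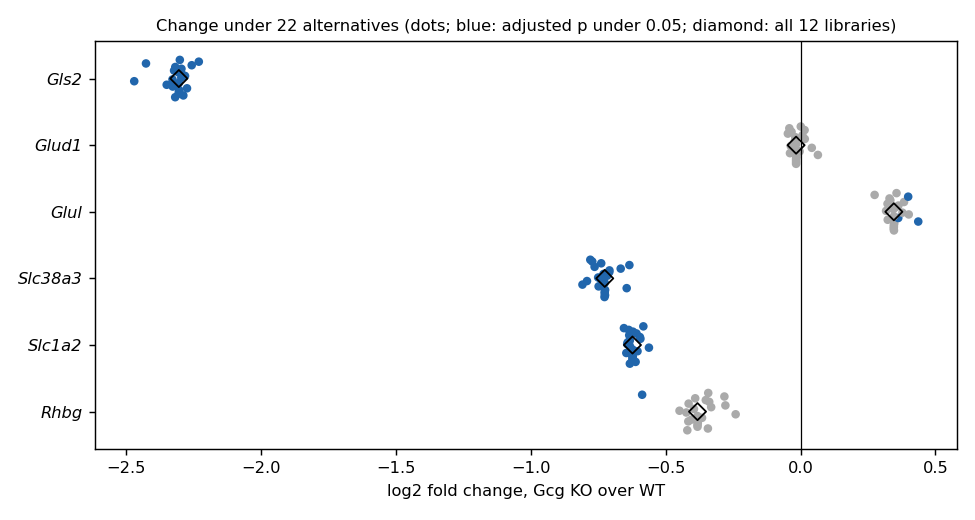
Log2 fold change, Gcg KO over WT (horizontal axis), of each of the 6 genes with all 12 libraries (open diamond) and under 22 alternatives (dots, blue where the adjusted p was under 0.05). Gls2, Slc38a3 and Slc1a2 passed under all 22, Glul under 3, Rhbg under 1 and Glud1 under 0.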

How the data were processed

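Polyadenylated RNA of 12 liver samples (6 WT, 6 Gcg KO) was sequenced as strand-specific libraries, per the labels' protocols. The authors deposited RPKM for 24475 genes, 1 column per library; the unit follows from the table's name and from its values, which are not whole and sum to 592950 to 624700 per library. CASAVA 1.8.2, FastQC and GRCm38 are named in the submitters' processing notes. Aligner, counting tool, annotation and the handling of strand and shared reads: not given in the sources used here. Of the Entrez identifiers, 24375 matched the RefSeq table of GRCm38.p6, which gave coordinates, counted from 1.

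Genes with a mean of at least 0.5 RPKM (11347) were tested in limma 3.58.1 (R 4.3.3) on log2(RPKM + 0.5) with a trended prior variance and genotype as the sole term, two-sided, threshold 0.05 after Benjamini-Hochberg adjustment. Fold changes on this scale understate those of low genes. Depth was estimated in Python 3.11.15 from GENCODE genes with 1 transcript: RPKM times length has a common lowest step, taken as 1 read, with 117 to 164 genes within 1% of it. Such depths and read numbers are estimates, and counting error adds to the spread of low genes such as Rhbg. Close copies were sought with BLAST 2.17.0 among GENCODE M21 transcripts at 90% identity or more over at least 100 bases. The 6 genes, the gene lists and the alternatives were chosen with earlier results of these data known. The text gives the 6 genes, the 8 genes with the smallest adjusted p of each pathway list, up to 4 per direction of each zonation list, and the 3 genes closest to each of the 6; others named were picked after their values were seen, and a few genes the rule names are not reported here. Alternatives changed the pseudocount (0.1 or 1), the filter (none, or 2 RPKM), the scaling (equal sums, quantiles or medians), array weights, the trend, and the libraries used.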

Additional observations from a re-analysis of the deposited data

Results flagged for a closer look

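In 58 sets of 6 libraries (28 genes and the ratio of Gls2 to Glul, in each group), 9 held a library that stood apart. Its gap to its nearest neighbour, as a share of the group's range, passed Dixon's 95% critical value for 6 libraries. For independent sets of normally spread values, chance alone would give about 1 in 20, or 2.9. The sets share the same 12 libraries and RPKM were used without logs, so the 9 cannot be read as an excess over 2.9. Of the 6 genes, this held for Gls2 in Gcg KO 10 (53.1 RPKM, against 26.7 to 36.3 in the other 5), for Rhbg in Gcg KO 11 (8.64 RPKM, against 2.68 to 4.12) and for Glud1 in WT 5 (393 RPKM, against 328 to 352). Gcg KO 11 was also highest of its group for Oat (128 RPKM, against 71.8 to 90.6), Got1 (35.3 RPKM, against 13.8 to 17.6) and Lect2 (84.7 RPKM, against 41.6 to 55.2). WT 1 was highest for Asns (8.64 RPKM, against 1.69 to 4.08) and Slc3a1 (35.3 RPKM, against 12.4 to 20.5). Gcg KO 12 was lowest for Cyp27a1 (322 RPKM, against 340.2 to 350.6).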

How the results depend on the processing

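Gls2, Slc38a3 and Slc1a2 kept their direction and passed under all 22 alternatives, with log2 fold changes of -2.47 to -2.23, -0.81 to -0.63 and -0.66 to -0.56. Leaving out 1 library at a time gave 0.27 to 0.40 for Glul, -0.59 to -0.28 for Rhbg and -0.047 to 0.016 for Glud1. The values of Glul that passed are 0.44 under quantile normalization, 0.36 with array weights and 0.40 without Gcg KO 10. Glud1 turned sign under quantile normalization (0.064), without WT 6, Gcg KO 10 and Gcg KO 12 (0.042), without WT 5 (0.016), Gcg KO 7 (0.0068), Gcg KO 10 (0.015) and Gcg KO 12 (6.8e-04), never past the threshold. The count of all genes past the threshold was 439, and 277 to 471 when 1 library was left out (277 without WT 3). It was 593 with array weights and 299 without WT 6, Gcg KO 10 and Gcg KO 12. The count of pericentral genes was 6, and 10 with array weights, 3 without WT 6, Gcg KO 10 and Gcg KO 12, and 4 to 8 when 1 library was left out. The cause of these shifts was not tested. No scaling moved the median log2 fold change of all genes by more than 0.1. No paired analysis was possible because the labels do not say whether any WT and Gcg KO libraries belong together. Depth limits Rhbg most of the 6 genes, at 68 to 184 estimated reads per library.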

Other observations

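The protein-coding neighbours of the 6 genes on the chromosome were looked up without regard to their values; this was added after the data were seen. Of 12 nearest neighbours outside the genes, 1 on each side, 9 were tested and 1 passed, where 3.87% of all tested genes did. It was Gnat1, which lies 5469 bases from Slc38a3. Gnat1 encodes the rod photoreceptor transducin alpha chain and fell from 1.26 ± 0.462 RPKM in WT to 0.278 ± 0.126 RPKM in Gcg KO (SD, n = 6), a log2 fold change of -1.16 ± 0.17 SE (limma adjusted p = 0.00149). All Gcg KO values of Gnat1 lay below all WT values. The Gcg KO mean was below the filter of 0.5 RPKM, which Gnat1 met over the 12 libraries only through WT. Its change therefore rests on values near the floor. Gnai2, on the other side of Slc38a3, had means of 28.7 RPKM (WT) and 33.0 RPKM (Gcg KO) and did not pass (adjusted p = 0.104). Spryd4, whose annotated span overlaps the end of Gls2, had 11.6 ± 1.22 RPKM in WT against 10.7 ± 0.928 RPKM in Gcg KO and did not pass (log2 fold change -0.11 ± 0.08 SE, limma adjusted p = 0.555). Fam35a, which ends 76 bases before Glud1, had means of 11.2 and 10.4 RPKM (adjusted p = 0.890).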
